A study of Mus musculus with 90 samples.

Results

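Transcript levels were compared between the hypothalamus and the frontal cortex of control mice. The 13 control hypothalamus libraries and the 16 control frontal cortex libraries were chosen by their labels, and they are 29 of the 90 libraries of the series. All 29 came from resident males of the C57BL/6J strain with no transgene or mutation. The female housed with each resident was taken away 3 h before the trial, and the resident was then exposed for 5 min to a wire cage that held a paper cup. Tissue was dissected 30, 60 or 120 min after the exposure. The design text gives cervical dislocation with no difference by time, while the column names carry the code ISO at 30 min and CERV at 60 and 120 min, which the labels do not explain. Every library is from an exposed animal, and none is from an untouched one. Hypothalamus has 3, 5 and 5 libraries at these times and frontal cortex has 5, 5 and 6. The other libraries of the series are from the amygdala and from residents exposed in the same cage to an unfamiliar BALB/c male, here called intruder animals. The design text speaks of pooling RNA to make libraries, while each library carries 1 animal label and its own index pair. The control libraries come from 16 animals, and 13 of them gave both regions.

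The hypothalamus is a set of small nuclei at the base of the forebrain whose neurons make peptide hormones and peptide transmitters that control feeding, fluid balance, sleep, reproduction and the pituitary. Its nuclei are laid down and kept by transcription factors of several classes, many of them homeodomain proteins. The frontal cortex is a layered sheet in which most neurons are excitatory pyramidal cells that use glutamate, specified by another set of factors, with interneurons that use GABA in the minority. Tissue dissected as a whole holds neurons, glia and vessels of both kinds of territory, and in bulk RNA a change in the number of cells of a type cannot be told apart from a change in RNA per cell.

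Peptide precursors and developmental transcription factors set the hypothalamus apart, and genes of excitatory pyramidal neurons set the frontal cortex apart. In hypothalamus libraries Pmch, Oxt, Hcrt and Avp stood at 43 to 634 CPM (gene reads scaled to a common library total), and in frontal cortex libraries all of them stood below 1 CPM. All 21 hypothalamic transcription factors that could be tested were higher in hypothalamus, and 24 of 27 cortical transcription factors were higher in frontal cortex. All 27 genes of pyramidal plasticity and signalling were higher in frontal cortex. Of 27 imprinted genes tested, 23 were higher in hypothalamus. By the same test 42.2% of all genes were higher in hypothalamus and 40.1% were higher in frontal cortex.

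A gene is called here when its Benjamini-Hochberg adjusted p, over the 17870 genes tested with edgeR's quasi-likelihood test, was below 0.05, and log2 fold changes are hypothalamus minus frontal cortex with time as a covariate. Of the genes tested, 14707 (82.3%) were called, 7549 (42.2%) higher in hypothalamus and 7158 (40.1%) higher in frontal cortex. A call alone therefore says little about a list, and the size of the difference and the overlap of the libraries are given beside it. Called genes with at least a 2-fold difference numbered 2110 (11.8%) for hypothalamus and 1740 (9.74%) for frontal cortex. All libraries of one region stood above all libraries of the other for 3511 genes (19.6%) higher in hypothalamus and 3451 genes (19.3%) higher in frontal cortex. At least 16-fold differences were found for 260 genes higher in hypothalamus and 135 higher in frontal cortex. In a principal component analysis the first component, which separated the regions, took 80.27% of the variance, and the second component took 2.815%. The median log2 fold change over all genes was 0.02. With libraries scaled by their size alone that median moved by 0.21, and the share of called genes that were higher in hypothalamus went from 51.3% to 67.5%. It was 57.2% with upper-quartile scaling. Small log2 differences below about that shift therefore depend on the scaling.

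**Figure D1:**
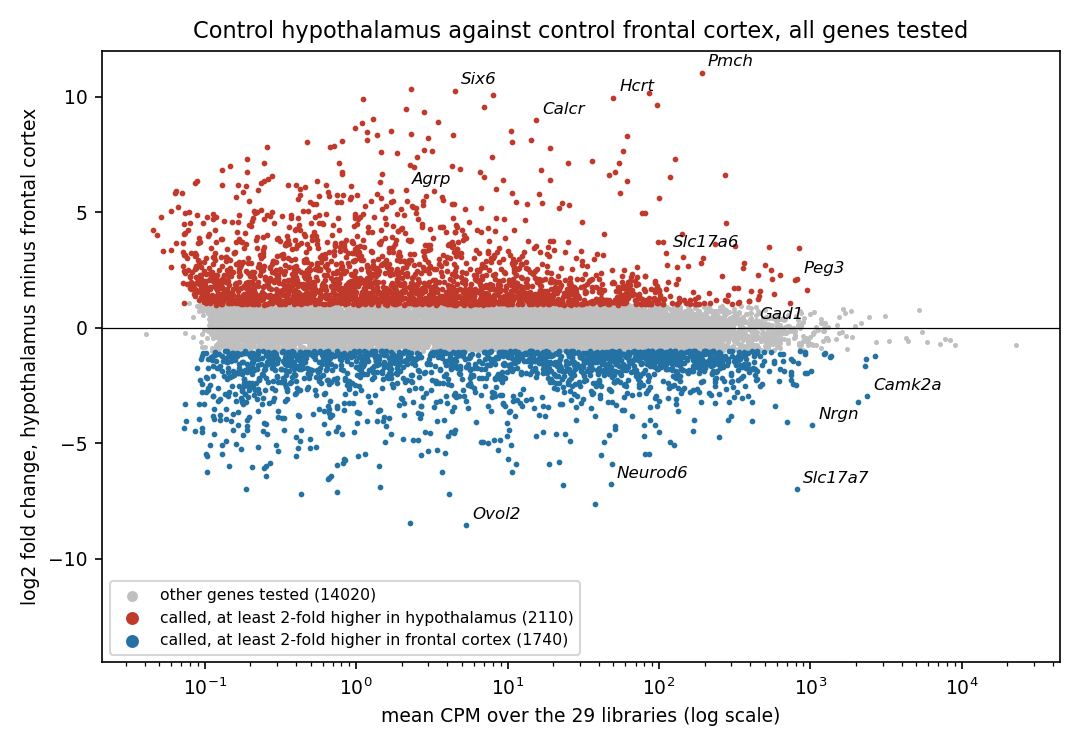
Each point is 1 of the genes tested, with its mean CPM over the 29 control libraries (log scale) against its log2 fold change, hypothalamus minus frontal cortex. The 2110 called genes at least 2-fold higher in hypothalamus (red) reach 11.05 for Pmch, and the 1740 higher in frontal cortex (blue) include the abundant Camk2a, Nrgn and Slc17a7.

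Depth was alike in both regions, with 40.36 to 54.47 M gene reads per hypothalamus library and 38.6 to 53.79 M per frontal cortex library. Mitochondrial transcripts took 6.25% to 7.44% of gene reads in hypothalamus and 8.01% to 9.7% in frontal cortex, and their part in the results was not tested. Among the 29 control libraries the leading library index was never shared by the regions (4 indices in each), so index and region cannot be told apart within them. The common coefficient of variation between libraries was 11.96% in hypothalamus and 8.671% in frontal cortex.

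Some hypothalamus libraries stood apart. The 120 min library of animal 2 held 166 CPM of Slc17a7, the vesicular glutamate transporter of pyramidal neurons, where the others held 2.35 to 22.5 CPM, and it was also the highest for Neurod2 (11.2 CPM), Emx1 (1.91 CPM) and Camk2a (979 CPM), but not for Neurod6 (0.53 CPM). The mean log2(CPM + 1) of 10 thalamus genes was 4.69 in the 30 min library of animal 3 and 5.25 in the 120 min library of animal 6, against 3.198 to 3.63 in the other 11. Log2 fold changes that moved by over 1.5 times as folds when these 3 libraries were left out are given with and without them. Leaving out the 120 min library of animal 2 alone gave log2 fold changes of -7.97 for Slc17a7, -7.40 for Emx1, -6.84 for Neurod2 and -8.48 for Gm11549. A further set of 4 libraries (30 min animals 3 and 5, 60 min animal 6 and 120 min animal 6) was low in Agrp, Npy, Pomc, Hdc and Rax, as described with the peptides. Scores of other lists moved with these 4 libraries, and their part in the results was not tested. The mean log2(CPM + 1) of ependymal and tanycyte genes was 3.193 to 3.288 in the 4 and 3.632 to 4.097 in the other 9, and that of pituitary genes was 0.05948 to 0.2207 against 0.3667 to 1.582. The scores of hypothalamic transcription factors, neuropeptides, monoamine genes, imprinted genes and dentate gyrus genes were also lower in all 4 than in the other 9, and that of interneuron genes was higher (4.785 to 4.842 against 4.346 to 4.701). In frontal cortex the mean log2(CPM + 1) of 12 striatum genes ran from 3.41 to 6.01 and that of 9 olfactory bulb genes from 1.17 to 3.78. The part of neighbouring tissue in the regional differences was not tested.

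The lists below group genes by their known roles, and the background for each count is the share of all tested genes given above. The hypothalamic transcription factors came first. Six6, Otp, Nkx2-1 and Rax are homeodomain factors of the developing hypothalamus, Sim1 is a basic helix-loop-helix PAS factor, and Nr5a1 is the nuclear receptor that marks the ventromedial nucleus. All 21 tested members were called and at least 2-fold higher in hypothalamus, against 11.8% of all genes, with a median log2 fold change of 7.005. The libraries of the regions did not overlap for 18 of the 21. Sim1, which specifies magnocellular and parvocellular neurons of the paraventricular nucleus, had 12.9 to 23.7 CPM in hypothalamus (median 17.7) and 0 to 0.106 CPM in frontal cortex (median 0). Every hypothalamus library lay far above every frontal cortex library, with a log2 fold change of 10.08 (SE 0.21, adjusted p = 3.83e-27), which was 10.80 without the 120 min frontal cortex library of animal 3. Six6 ran from 5.41 to 17.1 CPM (median 10.5) against at most 0.0275 CPM, with a log2 fold change of 10.27 (SE 0.29). Otp, a partner of Sim1 in peptide neurons, ran from 10.1 to 19.5 CPM against at most 0.061 CPM, with a log2 fold change of 9.57 (SE 0.20). Neither gene's libraries overlapped between regions.

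Some of these factors had almost no reads in frontal cortex and passed the filter on low counts through hypothalamus alone. Nkx2-4 had 1 read over all 16 frontal cortex libraries and 3511 reads in hypothalamus, a ratio of 4377 with a 95% counting interval of 785.1 to 172900. Without the library that held that read, frontal cortex 120 min animal 3, it was at least 1364-fold higher. Hmx3 had 3 reads against 3231, a ratio of 1343 (459 to 6514), and Hmx2 had 2 against 1666, a ratio of 1038 (287 to 8582), which was 1948 or 1943 without frontal cortex 60 min animal 1 or 120 min animal 2. These intervals cover counting error only. The ventromedial factor Nr5a1 (log2 fold change 7.38, SE 0.34), Fezf1 (8.04, SE 0.21) and the mammillary factor Foxb1 (8.24, SE 0.46, and 8.86 without frontal cortex 120 min animal 3) did not overlap between regions either. Nkx2-1, which is also expressed in ventral telencephalon, ran from 14.5 to 38.3 CPM in hypothalamus and from 0.305 to 1.37 CPM in frontal cortex (5.44, SE 0.19). The smallest differences of the list were those of Tbx3 (1.88, SE 0.28) and Nkx2-2 (1.85, SE 0.08). Tbx3, Rax and Lmx1b were the members whose lowest hypothalamus library fell below the highest frontal cortex library.

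The cortical factors showed the reverse pattern with more exceptions. Of 27 tested, 24 were higher in frontal cortex, 19 of them at least 2-fold (background 9.74%), and the list median was -2.11. Neurod6, a basic helix-loop-helix factor of pyramidal neurons, ran from 0.259 to 1.59 CPM in hypothalamus (median 0.805) and from 62.5 to 111 CPM in frontal cortex (median 86.4). No libraries overlapped, and the log2 fold change was -6.77 (SE 0.17, adjusted p = 2.58e-25). Emx1, the factor of the dorsal telencephalon, had a log2 fold change of -6.26 (SE 0.31), and -7.38 without the 3 hypothalamus libraries named above. Neurod2 had -5.89 (SE 0.36), and -6.79 without them. Tbr1 (-4.23, SE 0.25), Mef2c (-4.05, SE 0.17) and the deep-layer factor Fezf2 (-3.42, SE 0.12) were also lower in every hypothalamus library than in any frontal cortex library. The listed factors Foxp2 and Tle4 went the other way, each by less than 2-fold and with overlapping libraries, Foxp2 by 0.42 (SE 0.12, adjusted p = 0.00207) and Tle4 by 0.29 (SE 0.06, adjusted p = 6.54e-05). The call of Foxp2 ended without the 30 min libraries (0.21). Zfpm2 was not called (0.11, SE 0.08, adjusted p = 0.194), and it was called higher in hypothalamus with upper-quartile scaling (0.18), with library size alone (0.32) and without the 120 min frontal cortex library of animal 6 (0.16).

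Peptide precursors are the proteins from which neuropeptides are cut. Of 34 tested, 24 were higher in hypothalamus, 22 of them at least 2-fold, 6 were higher in frontal cortex, 4 of them at least 2-fold, and 4 were not called. The list median was 2.14. The promoters of the 5 peptide genes with the largest differences are shown, followed by those of a pair of genes higher in frontal cortex, so that their start regions can be compared. Each sequence is the RefSeq sequence on build GRCm38.p6 from 250 bases before to 50 bases after the annotated start, on the gene's strand: Pmch at chr10:88090822-88091121 (plus strand), Oxt at chr2:130575919-130576218 (plus), Avp at chr2:130582539-130582838 (minus), Hcrt at chr11:100762882-100763181 (minus), Qrfp at chr2:31810531-31810830 (minus), Slc17a7 at chr7:45163671-45163970 (plus) and Neurod2 at chr11:98329596-98329895 (minus). Capitals mark ATAAA on the printed strand within the 50 bases before the start, the core of a TATA box, and GGGCGG on either strand anywhere in the 300 bases, the core of a GC box.
Pmch: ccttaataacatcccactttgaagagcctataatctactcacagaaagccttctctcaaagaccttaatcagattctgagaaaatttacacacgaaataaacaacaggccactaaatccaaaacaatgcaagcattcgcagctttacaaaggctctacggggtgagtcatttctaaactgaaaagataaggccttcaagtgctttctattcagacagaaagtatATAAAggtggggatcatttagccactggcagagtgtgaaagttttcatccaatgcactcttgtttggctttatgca
Oxt: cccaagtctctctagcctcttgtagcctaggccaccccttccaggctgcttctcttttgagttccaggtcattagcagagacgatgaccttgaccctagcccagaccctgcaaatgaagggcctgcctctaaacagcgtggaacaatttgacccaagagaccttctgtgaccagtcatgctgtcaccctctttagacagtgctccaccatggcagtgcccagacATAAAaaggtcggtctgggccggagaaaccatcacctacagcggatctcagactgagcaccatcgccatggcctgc
Avp: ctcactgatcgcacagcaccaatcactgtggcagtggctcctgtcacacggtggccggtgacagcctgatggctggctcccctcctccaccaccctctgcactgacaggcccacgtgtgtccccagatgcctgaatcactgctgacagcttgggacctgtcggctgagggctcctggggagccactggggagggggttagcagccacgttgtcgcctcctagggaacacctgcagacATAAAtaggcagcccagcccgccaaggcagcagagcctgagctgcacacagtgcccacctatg
Hcrt: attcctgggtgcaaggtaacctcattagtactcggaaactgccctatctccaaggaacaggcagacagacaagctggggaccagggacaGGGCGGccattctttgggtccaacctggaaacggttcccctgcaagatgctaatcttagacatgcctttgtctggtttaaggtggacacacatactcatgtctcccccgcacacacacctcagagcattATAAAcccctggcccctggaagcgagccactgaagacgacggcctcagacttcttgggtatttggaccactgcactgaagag
Qrfp: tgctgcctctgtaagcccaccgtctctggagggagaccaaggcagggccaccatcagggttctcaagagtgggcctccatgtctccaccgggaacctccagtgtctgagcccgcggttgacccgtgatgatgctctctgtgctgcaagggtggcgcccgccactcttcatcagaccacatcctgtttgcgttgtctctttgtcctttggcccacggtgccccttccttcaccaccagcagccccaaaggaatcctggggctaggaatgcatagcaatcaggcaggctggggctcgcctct
Slc17a7: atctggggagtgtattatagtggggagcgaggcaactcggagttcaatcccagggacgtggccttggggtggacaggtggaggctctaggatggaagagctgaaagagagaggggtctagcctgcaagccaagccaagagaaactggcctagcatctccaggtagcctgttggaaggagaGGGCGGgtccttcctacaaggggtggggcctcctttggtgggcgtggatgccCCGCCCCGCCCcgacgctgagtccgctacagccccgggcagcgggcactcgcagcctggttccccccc
Neurod2: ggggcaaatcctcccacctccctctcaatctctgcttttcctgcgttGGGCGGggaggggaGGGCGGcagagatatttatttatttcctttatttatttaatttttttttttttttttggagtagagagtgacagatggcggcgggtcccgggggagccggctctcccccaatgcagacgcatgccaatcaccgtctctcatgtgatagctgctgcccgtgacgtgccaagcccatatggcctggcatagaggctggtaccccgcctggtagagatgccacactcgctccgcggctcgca
In the peptide genes ATAAA began 26 bases before the start in Pmch and in Oxt, 32 in Hcrt and 13 in Avp, and Qrfp, Slc17a7 and Neurod2 did not have it in that window. Slc17a7 held 3 matches to GGGCGG, Neurod2 held 2, Hcrt held 1 and Qrfp held 0. Of the 32 promoters matched for 29 of the 37 listed peptide genes, 12 (37.5%) held ATAAA in the window, against 598 of 16123 (3.71%) for tested genes and 6.57% of all 32851 promoters of the table. The peptide genes with it include Npy and Vip, which were higher in frontal cortex. GGGCGG was found in 28.1% of the peptide promoters and in 57.9% of those of tested genes. Genes at least 2-fold higher in hypothalamus held ATAAA in 5.85% of promoters and those higher in frontal cortex in 6.35%. A match is a description of letters in the window and not a site.

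Pmch encodes melanin-concentrating hormone, made in neurons of the lateral hypothalamus. Its transcript had 231 to 634 CPM in hypothalamus (median 401) and 0.0647 to 0.393 CPM in frontal cortex (median 0.192). The regions did not overlap, and the log2 fold change of 11.05 (SE 0.15, adjusted p = 3.64e-31) was the largest fitted value of the genes named by the size rule. Oxt encodes oxytocin and ran from 105 to 282 CPM (median 210) against 0 to 0.297 CPM (10.17, SE 0.21). Avp encodes vasopressin and ran from 143 to 286 CPM (median 230) against 0.078 to 0.55 CPM (9.67, SE 0.16). Hcrt encodes the orexins, peptides of wakefulness, and ran from 43 to 194 CPM (median 115) against 0.0431 to 0.19 CPM (9.97, SE 0.26). For each of the 3 genes the lowest hypothalamus library stood above the highest frontal cortex library. Qrfp had 1683 reads in hypothalamus and 0 in all frontal cortex libraries, so it was at least 699.4-fold higher, against a floor of 3 reads over the group.

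**Figure D2:**
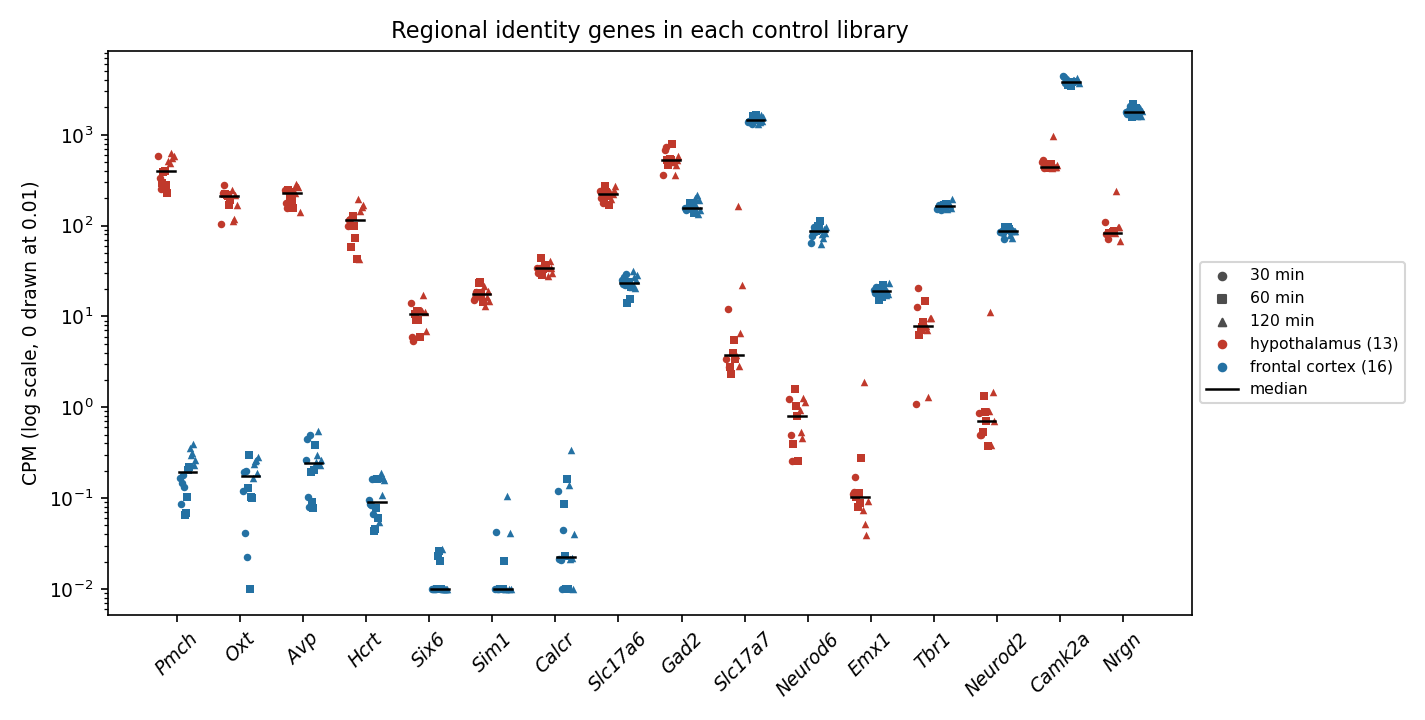
CPM of 16 regional genes (log scale) in each of the 13 hypothalamus (red) and 16 frontal cortex (blue) libraries, with shapes for time, a bar for the median and 0 drawn at 0.01. The peptide and factor genes on the left have no overlap, and on the right 1 hypothalamus library stands out for Slc17a7, Emx1, Neurod2, Camk2a and Nrgn.

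Other hypothalamic peptides differed as clearly. Trh, thyrotropin-releasing hormone, ran from 102 to 143 CPM against 0.221 to 7.45 CPM (5.83, SE 0.26), a narrow range in hypothalamus and a wide one in frontal cortex. Gal, galanin, ran from 22.1 to 38.9 CPM against 0 to 0.302 CPM (8.12, SE 0.17). Ghrh (7.04, SE 0.27), Npvf (8.40, SE 0.34) and Ucn3 (8.50, SE 0.48, and 9.93 without frontal cortex 120 min animal 3), which act on growth hormone, gonadotropin and stress circuits, did not overlap between regions. Cartpt ran from 33.3 to 87.1 CPM against 4.12 to 11.7 CPM (2.91, SE 0.14). Gnrh1, the releasing hormone of gonadotropins, was low in both, at 1.16 to 5.33 CPM against 0.26 to 1.22 CPM, with overlapping libraries (1.98, SE 0.21, adjusted p = 4.22e-10). Tac1 (1.18, SE 0.21) and Pdyn (0.93, SE 0.12) were higher in hypothalamus with overlap.

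The 4 peptide genes at least 2-fold higher in frontal cortex were Cck, Cort, Vip and Npy. Cck ran from 5.07 to 40.9 CPM in hypothalamus and from 231 to 360 CPM in frontal cortex (-4.46, SE 0.26, and -5.09 without the 3 libraries), and Cort from 0.0175 to 0.53 CPM against 4.07 to 7.91 CPM (-5.32, SE 0.22, and -5.87 without them). Vip (-2.11, SE 0.15) and Npy (-2.06, SE 0.24), which mark interneuron classes in cortex, also had no overlap. Npy is also made by arcuate neurons, and its hypothalamus libraries ran from 4.68 to 37.3 CPM against 66.1 to 89.9 CPM in frontal cortex. Sst was lower in hypothalamus by less than 2-fold (-0.58, SE 0.07). Npff was called at -0.24 (SE 0.10, adjusted p = 0.0312), a call that ended with upper-quartile scaling (-0.17) and with library size alone (-0.03). It also ended without any 1 of 7 libraries, at -0.22 to -0.20, which were hypothalamus 30 min animal 3, 60 min animals 1, 3 and 6 and 120 min animal 3, and frontal cortex 60 min animals 2 and 5. Crh, the stress peptide of the paraventricular nucleus, was not called (-0.31, SE 0.23, adjusted p = 0.206), at 1.41 to 12 CPM against 5.33 to 11.2 CPM. In the 4 hypothalamus libraries low in Agrp it stood at 7.01 to 12 CPM, and in the other 9 at 1.41 to 7.25 CPM. The part of those 4 in the missing call was not tested. Penk, Grp and Nmb were not called either. Grp passed the threshold without hypothalamus 30 min animal 2 (-0.32) or 5 (-0.33) or frontal cortex 30 min animal 2 (-0.32), and Nmb without frontal cortex 60 min animal 5 (0.27).

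Agrp, Pomc, Hdc and Rax differed widely between hypothalamus libraries. Agrp, the feeding peptide of the arcuate nucleus, stood at 0.0517 to 0.636 CPM in the 4 libraries named above and at 3.64 to 10.7 CPM in the other 9. In frontal cortex it ran from 0 to 0.138 CPM, so the lowest hypothalamus library fell inside the frontal cortex range, and the log2 fold change was 5.97 (SE 0.59, adjusted p = 1.45e-10). Pomc, the precursor of melanocortins in neighbouring arcuate neurons, stood at 3.43 to 16.5 CPM in the same 4 and at 31.8 to 70.8 CPM in the rest, and never reached the frontal cortex range of 0.448 to 1.21 CPM (5.403, SE 0.35). Hdc, which makes histamine in the tuberomammillary nucleus, stood at 4.14 to 8.03 CPM in the 4 and at 31 to 91.3 CPM in the rest (5.79, SE 0.42). Rax, a factor of tanycytes, stood at 0.0517 to 0.398 CPM in the 4 and at 1.32 to 5.61 CPM in the rest (5.68, SE 0.61, and 5.08 without the 30 min library of animal 2). Other peptides did not all follow. Avp was lower in these 4 libraries too, at 143 to 176 CPM against 185 to 286 CPM in the other 9, a smaller difference than that of Agrp. So were Cartpt (33.3 to 47.1 CPM against 56.8 to 87.1 CPM) and Ghrh (2.47 to 3.26 CPM against 4.45 to 7.59 CPM). Crh leaned the other way with overlap (7.01 to 12 CPM against 1.41 to 7.25 CPM). Hcrt (43.0 to 170 CPM against 43.3 to 194 CPM), Pmch (231 to 578 against 278 to 634) and Oxt (168 to 282 against 105 to 246) had overlapping ranges. The coefficient of variation over the 13 libraries was 79.3% for Agrp, 62.3% for Pomc and 74.6% for Hdc, and 33.1% for Pmch, 28.4% for Oxt and 22.4% for Avp. Whether the 4 dissections differed in extent was not tested.

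**Figure D3:**
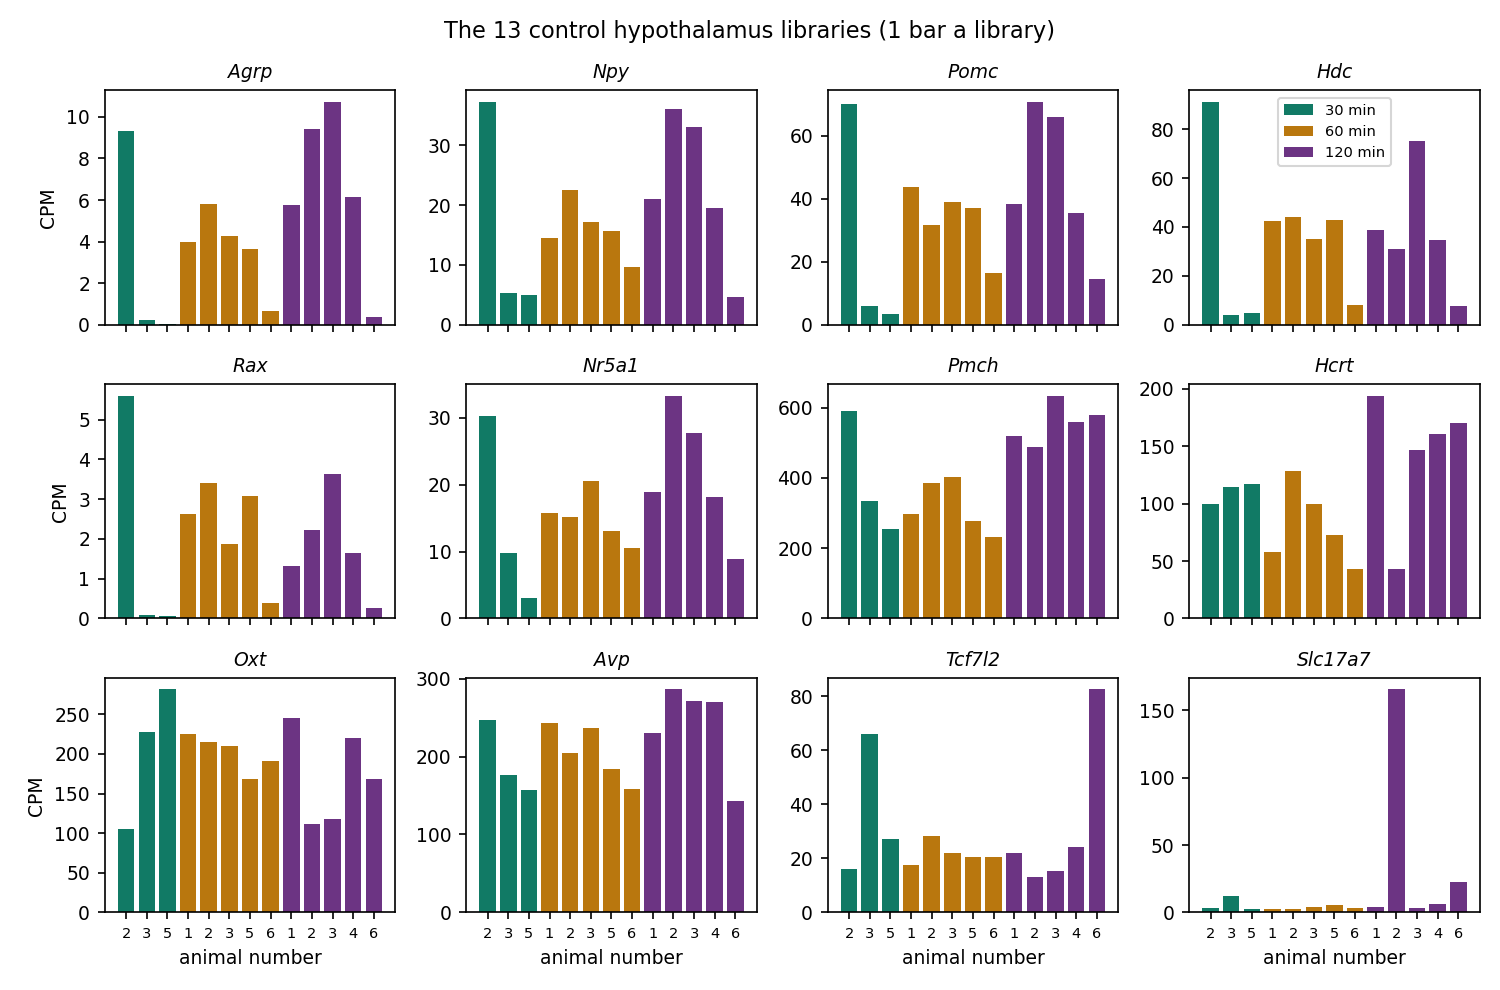
CPM of 12 genes in the 13 control hypothalamus libraries, 1 bar a library, coloured by time and numbered by animal. Agrp, Npy, Pomc, Hdc and Rax were low in the same 4 libraries (30 min animals 3 and 5, 60 min animal 6, 120 min animal 6), Tcf7l2 was high in 2 libraries and Slc17a7 in 1.

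6 pairs of peptide genes were compared across hypothalamus libraries on log2(CPM + 1), with p-values adjusted over the 6 pairs. For pairs with Agrp the 9 control libraries with at least 1 CPM of Agrp were used, since the other 4 form a separate cluster. Agrp and Npy had r = 0.963 (exact permutation p = 0.000458, adjusted 0.00275) and rho = 0.867 (adjusted 0.0271) over these 9, and r = 0.956 (exact permutation p = 0.00317) without the 2 libraries farthest from the Agrp median, where rho was 0.857 (exact permutation p = 0.0238, adjusted 0.143). After subtracting the mean of each time r was 0.938. Agrp and Pomc had r = 0.791 (exact permutation p = 0.0161, adjusted 0.0484) but rho = 0.483 (exact permutation p = 0.194), and r was 0.589 (exact permutation p = 0.171) without the 2 farthest, so in controls that relation rests on those libraries. Oxt and Avp, made in neighbouring magnocellular neurons, had r = -0.421 over the 13 controls (permutation p = 0.151, adjusted 0.227) and rho = -0.390 (permutation p = 0.187), and r was -0.169 without the 2 farthest. Hcrt and Pmch had r = 0.557 (permutation p = 0.0491, adjusted 0.0982) and rho = 0.577 (permutation p = 0.0409), which did not pass the adjustment, with r = 0.656 without the 2 farthest and 0.369 after subtracting the mean of each time. Oxt with Hcrt (r = 0.260) and Agrp with Hcrt (r = 0.120) had adjusted permutation p of 0.470 and 0.751. Over the 15 intruder hypothalamus libraries Oxt and Avp had r = 0.754 (permutation p = 0.00137, adjusted 0.00274), the opposite sign to controls, and Hcrt and Pmch had r = 0.794 (permutation p = 0.00227, adjusted 0.0034). Agrp and Npy had r = 0.917 (permutation p = 2e-05) over 13 intruder libraries, and Agrp and Pomc had r = 0.860 (permutation p = 0.00031, adjusted 0.00093), with r = 0.693 (permutation p = 0.0198, adjusted 0.0297) but rho = 0.473 (permutation p = 0.143, adjusted 0.172) without the 2 farthest. Oxt and Hcrt in intruder animals had r = 0.341 (adjusted permutation p = 0.2525) but rho = 0.639 (adjusted permutation p = 0.017). After subtracting the mean of each time that rho was 0.386 (adjusted permutation p = 0.168). Agrp and Hcrt had r = 0.331 there (adjusted permutation p = 0.2525). The difference between the animal sets was not tested.

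Enzymes and granins of the secretory pathway divided gene by gene between the regions. Their mean log2(CPM + 1) was 7.861 to 8.019 in hypothalamus and 7.432 to 7.647 in frontal cortex, with no overlap. Of 15 tested, 7 were higher in hypothalamus, 7 were higher in frontal cortex and 1 was not called, and the median of -0.03 turned to 0.18 with library size alone and to 0.04 with upper-quartile scaling. Resp18 (2.82, SE 0.05), a protein of peptide-secreting cells, Scg2 (2.11, SE 0.07), a granin, and Qpct (2.001, SE 0.05), which forms the amino-terminal pyroglutamate of peptides such as Trh, were higher in hypothalamus with no overlap. Pcsk2, a convertase that cuts precursors, was lower (-1.16, SE 0.05), at 180 to 255 CPM against 420 to 550 CPM, with no overlap. Chgb (-0.84, SE 0.03) and the carboxypeptidase Cpe (-0.39, SE 0.03) were also lower in every hypothalamus library.

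Receptors for hormones and peptides leaned to the hypothalamus. Of 44 tested, 31 were higher there, 23 of them at least 2-fold, and 11 were higher in frontal cortex, 6 of them at least 2-fold, with a list median of 1.44. Calcr, the calcitonin and amylin receptor, ran from 27.7 to 43.6 CPM (median 34.2) against 0 to 0.338 CPM (8.99, SE 0.19), with no overlap. Ghsr, the ghrelin receptor (7.67, SE 0.25), Brs3, an orphan bombesin receptor (7.69, SE 0.23), Mc3r, a melanocortin receptor (5.54, SE 0.17), Prlr, the prolactin receptor (5.42, SE 0.17), and Avpr1a, a vasopressin receptor (4.70, SE 0.14), were separated in all libraries. Esr1, the oestrogen receptor, ran from 15.8 to 27.9 CPM against 1.9 to 4.26 CPM (2.79, SE 0.11). Both orexin receptors were higher in hypothalamus, Hcrtr1 by 1.66 (SE 0.10) and Hcrtr2 by 2.06 (SE 0.08) on the log2 scale.

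Receptors and ligands did not always share a side. Mchr1, the receptor for the Pmch product, was lower in hypothalamus, at 9.25 to 12.9 CPM against 17.4 to 24.1 CPM (-0.96, SE 0.05), with no overlap. The CRH receptors divided: Crhr1 was lower (-1.87, SE 0.05) and Crhr2 was higher (2.96, SE 0.11), each with no overlap. Sstr4, a somatostatin receptor, was lower (-1.77, SE 0.11). Oxtr, the oxytocin receptor, was not called, at 7.45 to 21.9 CPM against 5.53 to 15.6 CPM (0.21, SE 0.15, adjusted p = 0.193), and it was called with library size alone (0.41) or without the 60 min frontal cortex library of animal 5 (0.30). Pgr, the progesterone receptor, was not called (0.12, SE 0.12, adjusted p = 0.361). Lepr, the leptin receptor, was called at 0.54 (SE 0.21, adjusted p = 0.0181), but the call ended with the animal as a block, with limma voom or without the 120 min hypothalamus library of animal 3 (0.41), and its sign differed by time, as given below.

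The transporters that load transmitter into vesicles divided the regions by kind of glutamate neuron. Slc17a7, of cortical neurons, ran from 2.35 to 166 CPM in hypothalamus (median 3.81) and from 1307 to 1639 CPM in frontal cortex (median 1439). The highest hypothalamus library was still well below the lowest frontal cortex library. The log2 fold change was -6.98 (SE 0.62, adjusted p = 1.05e-11), and -8.63 without the 3 libraries. Slc17a6, of subcortical glutamate neurons, ran from 168 to 276 CPM against 14.2 to 31.8 CPM (3.24, SE 0.09), with no overlap. Slc17a8 was not called (-0.06, SE 0.13). The GABA enzymes differed from each other: Gad2 ran from 360 to 782 CPM against 134 to 218 CPM (1.71, SE 0.10), whereas Gad1 overlapped and was not called (0.12, SE 0.07, adjusted p = 0.0932). Gad1 passed the threshold with upper-quartile scaling (0.19) and library size alone (0.33), and without either of 2 hypothalamus libraries, 30 min animal 2 or 120 min animal 2. In the 4 hypothalamus libraries low in Agrp, Gad1 stood at 456 to 624 CPM and Gad2 at 590 to 782 CPM. In the other 9 Gad1 stood at 336 to 430 CPM and Gad2 at 360 to 536 CPM. The vesicular GABA transporter Slc32a1 was higher by 0.91 (SE 0.09) and the glial GABA transporter Slc6a11 by 2.29 (SE 0.05) on the log2 scale.

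Genes of monoamine and histamine neurons included 8 of 11 tested that were higher in hypothalamus, 7 of them at least 2-fold. Slc18a2, the vesicular monoamine transporter, ran from 15.9 to 67.2 CPM against 0.0799 to 0.834 CPM (6.85, SE 0.31). Ddc (3.27, SE 0.08) and Th (2.78, SE 0.26), which make dopamine, and the dopamine transporter Slc6a3 (4.08, SE 0.38) did not overlap between regions. Tph2 was low everywhere, at 0.208 to 0.628 CPM in hypothalamus and 0.875 to 2.86 CPM in frontal cortex (-2.12, SE 0.16). Dbh was at most 0.517 CPM in any library (-2.71, SE 0.33). Slc6a4 and Slc6a2 had too few reads to test. Among 12 serotonin receptors 6 were higher in hypothalamus and 5 in frontal cortex. Htr4 (2.54, SE 0.16) and Htr2c (1.73, SE 0.16) led on one side and Htr1f (-1.79, SE 0.15) and Htr6 (-1.20, SE 0.06) on the other, all with no overlap.

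Among 14 GABA-A receptor subunits, 6 were higher in each region and 2 were not called, shares close to the 42.2% and 40.1% of all genes. Their mean log2(CPM + 1) was 6.098 to 6.424 in hypothalamus and 5.621 to 5.845 in frontal cortex, with no overlap. Gabre and Gabrq, subunits encoded in one cluster on the X chromosome, were the extremes on the hypothalamic side. Gabre ran from 28.3 to 55.9 CPM against 0.0599 to 0.366 CPM (7.77, SE 0.14) and Gabrq from 98.2 to 151 CPM against 0.521 to 1.32 CPM (7.12, SE 0.10). Gabrg1 was higher by 1.99 (SE 0.05) on the log2 scale. On the other side stood Gabrd, the extrasynaptic delta subunit, at 0.778 to 12.4 CPM against 71.7 to 92.7 CPM (-4.63, SE 0.34, and -5.75 without the 3 libraries), and Gabra4 (-1.70, SE 0.11). Among 17 ionotropic glutamate receptor subunits 10 were higher in hypothalamus and 7 in frontal cortex. Grin2d (2.02, SE 0.05), Grin3a (1.42, SE 0.05) and Grik1 (1.33, SE 0.07) were higher in every hypothalamus library. Gria3 (-1.50, SE 0.06), Grin2c (-1.30, SE 0.05) and Grin1 (-0.77, SE 0.03) were lower in every one. Grin2a (-1.96, SE 0.18) and Grin2b (-1.22, SE 0.19) were lower with overlap.

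Pyramidal plasticity and signalling genes encode kinases, calmodulin-binding proteins and activity-induced proteins of excitatory synapses. All 27 were called higher in frontal cortex, 25 at least 2-fold, and 26 did not overlap, with a median of -2.345. Camk2a, the alpha subunit of the main postsynaptic kinase, ran from 427 to 979 CPM (median 447) against 3444 to 4399 CPM (median 3829), with a log2 fold change of -2.96 (SE 0.09). Nrgn, which binds calmodulin in dendritic spines, ran from 67.6 to 242 CPM against 1565 to 2164 CPM (-4.21, SE 0.15). Itpka (-4.93, SE 0.23) and Homer1 (-3.28, SE 0.09) were also separated in all libraries, and Camk2b had the smallest difference (-0.66, SE 0.03). The activity-induced genes were lower in hypothalamus at every time after the paper cup exposure. Arc ran from 9.65 to 20.6 CPM against 210 to 604 CPM (-4.74, SE 0.12), Egr3 from 1.45 to 6.92 CPM against 46.9 to 99.7 CPM (-4.94, SE 0.18) and Egr1 from 24.9 to 83.4 CPM against 352 to 620 CPM (-3.20, SE 0.11). Npas4 (-1.64, SE 0.08) did not overlap, and Fos overlapped, at 8.27 to 33.7 CPM against 22 to 70.9 CPM (-1.28, SE 0.10).

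**Figure D4:**
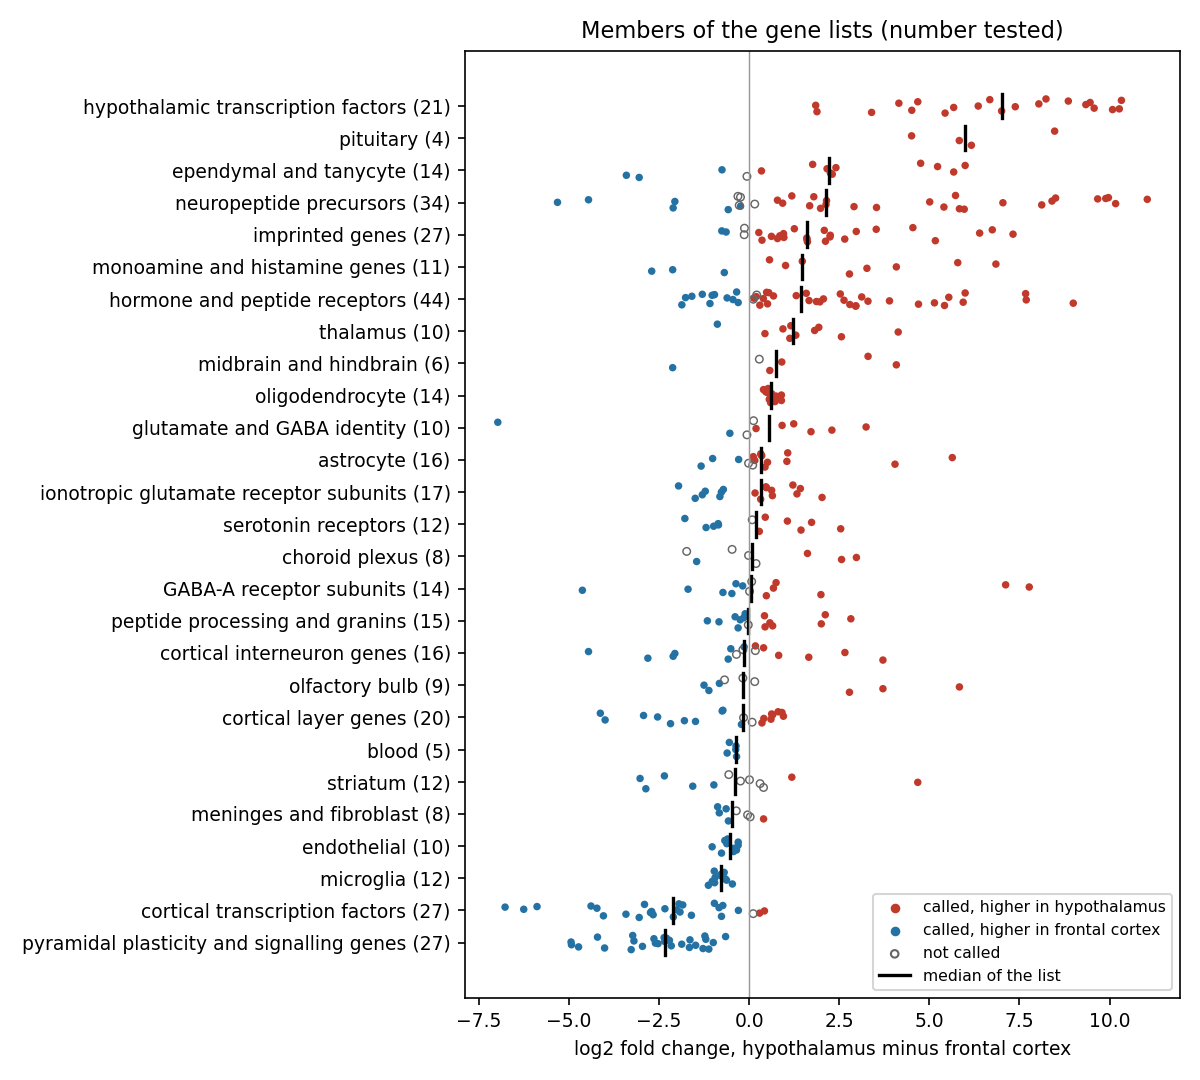
Log2 fold change of every tested member of 27 gene lists, hypothalamus minus frontal cortex, with filled points for called genes, open points for genes not called and a bar for the list median. The hypothalamic factors lie wholly to the right (median 7.005) and the pyramidal genes wholly to the left (median -2.345), while receptor subunit families spread to both sides.

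Cortical layer and interneuron markers held genes on both sides. Of 20 layer genes 10 were higher in frontal cortex, 7 of them at least 2-fold (background 9.74%), and 8 were higher in hypothalamus, 0 of them at least 2-fold. The median of -0.19 became 0.02 with library size alone. The mean log2(CPM + 1) of the layer genes was 4.478 to 4.958 in hypothalamus and 4.998 to 5.373 in frontal cortex, with no overlap. Cplx3 (-4.13, SE 0.16), Lamp5 (-3.999, SE 0.12) and Chrna5 (-2.93, SE 0.12) were lower in every hypothalamus library, and Parm1 (0.95, SE 0.05) was higher in every one. Of 16 interneuron genes 7 were higher in frontal cortex, 4 of them at least 2-fold, and 6 in hypothalamus, 3 of them at least 2-fold, with a median of -0.16 that became 0.05 with library size alone. Calb2, the calcium-binding protein calretinin, was higher in hypothalamus, at 174 to 260 CPM against 7.57 to 57.1 CPM (3.71, SE 0.25), and so was Nr2f2 (2.66, SE 0.06). Pvalb, parvalbumin of fast-spiking interneurons, was lower, at 4.72 to 17 CPM against 38.7 to 78.8 CPM (-2.81, SE 0.16). Lhx6 was not called (-0.35, SE 0.30), with hypothalamus libraries from 3.28 to 60.7 CPM, and it passed the threshold with the animal as a block (-0.76, adjusted p = 0.0497), with limma voom (-0.76) and without the 60 min hypothalamus library of animal 6 (-0.62).

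Imprinted genes, expressed from 1 parental allele, were a group in which the direction was nearly uniform. Of 27 tested, 23 were higher in hypothalamus, 16 of them at least 2-fold, 2 were higher in frontal cortex and 2 were not called, with a median of 1.604, and no overlap of the libraries for 22 higher in hypothalamus and 1 higher in frontal cortex. Dlk1, a secreted and membrane protein of the Notch ligand family, ran from 211 to 334 CPM (median 287) against 0.261 to 7.4 CPM (7.32, SE 0.30). Magel2 (6.75, SE 0.14) and Ndn (2.25, SE 0.07) lie in the region deleted in Prader-Willi syndrome, and both were higher in every hypothalamus library. Asb4 (6.39, SE 0.17), Zim1 (5.17, SE 0.14), Peg10 (4.54, SE 0.08) and Nnat (3.52, SE 0.14) were separated too. Among abundant members, Peg3 ran from 1199 to 1645 CPM against 238 to 447 CPM (2.12, SE 0.07), Gnas differed by 0.62 (SE 0.04) and Meg3 by 0.78 (SE 0.05) on the log2 scale. Grb10 had the smallest spread of these, with a coefficient of variation of 3.8% over hypothalamus libraries (2.65, SE 0.04). Mest was lower in every hypothalamus library (-0.76, SE 0.07), and Igf2 was lower with overlap (-0.64, SE 0.25, adjusted p = 0.0187), a call that ended with library size alone (-0.42) or without the 30 min libraries (-0.35). Mkrn3 and Cdkn1c were not called.

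Oligodendrocyte genes were higher in hypothalamus, and microglia and endothelial genes were higher in frontal cortex. All 14 oligodendrocyte genes were higher in hypothalamus, none by 2-fold, with a median of 0.61 and overlap for every gene. Myrf, a factor of myelin gene expression, differed by 0.89 (SE 0.07) and Mbp, a myelin protein, by 0.46 (SE 0.09). All 12 microglia genes were lower in hypothalamus (median -0.78) with no overlap for any of them, led by Fcrls (-1.13, SE 0.05) and Aif1 (-1.03, SE 0.07). All 10 endothelial genes were lower (median -0.53), with Slco1c1 at -1.03 (SE 0.05). The medians of these lists kept their sign with library size alone, at 0.82, -0.57 and -0.32. Of 16 astrocyte genes 11 were higher in hypothalamus and 3 in frontal cortex. Agt, angiotensinogen, ran from 176 to 247 CPM against 3.09 to 7.68 CPM (5.64, SE 0.10), and Itih3 from 261 to 382 CPM against 13.6 to 21.5 CPM (4.05, SE 0.06). Gfap (1.05, SE 0.13) was higher with overlap. Slc1a2, the main glutamate transporter of astrocytes, was lower, at 1110 to 1451 CPM against 2295 to 3910 CPM (-1.33, SE 0.06), and Mfge8 was lower too (-1.02, SE 0.06). Aldoc was not called (-0.02, SE 0.03) and passed the threshold with library size alone (0.19).

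Genes of the ventricle wall, the pituitary and the thalamus also moved with region, and their part in the other results was not tested. Of 14 ependymal and tanycyte genes 10 were higher in hypothalamus, 9 at least 2-fold, and 3 were higher in frontal cortex. Tmem212 (5.23, SE 0.31) and Foxj1 (2.16, SE 0.09), genes of ciliated ependymal cells, and Gpr50 (5.99, SE 0.31), of tanycytes, did not overlap. Dio2, the deiodinase that activates thyroid hormone, was lower in hypothalamus, at 7.65 to 29.3 CPM against 131 to 191 CPM (-3.41, SE 0.12), and Lhx2 was lower too (-3.05, SE 0.14). The 4 tested pituitary genes were higher in hypothalamus. They passed the filter on low counts through hypothalamus alone, so that shared direction is no result. Of the same list, Gh (819 reads in hypothalamus against 18), Prl (157 against 6) and Pou1f1 (20 against 26) were not tested. Levels varied: Cga, the shared glycoprotein hormone subunit, ran from 0 to 7.33 CPM between animals, with 1806 reads against 3, a ratio of 750.5 (256.4 to 3643). Tshb had 109 reads against 3, a ratio of 45.29 (15.09 to 223) that was 128 without frontal cortex 60 min animal 2. Fshb had 109 reads against 0, at least 45.29-fold, and at least 28.07-fold without hypothalamus 120 min animal 3. The mean log2(CPM + 1) of the pituitary list was 0.0595 to 1.58 in hypothalamus libraries and 0 to 0.0400 in frontal cortex libraries. Of 10 thalamus genes 9 were higher in hypothalamus, with a list score of 3.198 to 5.25 against 2.57 to 2.81. Tcf7l2, a factor of thalamic neurons, differed by 2.56 (SE 0.22), and by 2.12 without the 3 libraries. Prkcd differed by 1.13 (SE 0.27), by 0.42 without the 3 libraries and by 0.67 without the 120 min library of animal 6 alone. Choroid plexus genes varied in both regions, and Ttr, their most abundant transcript, ran from 0.281 to 180 CPM in hypothalamus and from 0.194 to 296 CPM in frontal cortex and was not called (-1.74, SE 0.86, adjusted p = 0.0621). It passed the threshold without any 1 of 5 libraries, at -2.93 without hypothalamus 60 min animal 6 and at -1.997 to -1.89 without hypothalamus 120 min animal 4 or frontal cortex 60 min animal 1, 3 or 5.

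The genes of each region chosen by size of the difference included, in hypothalamus, Pmch, Nkx2-4, Six6, Oxt, Sim1, Hcrt, Qrfp, Avp, Otp, Hmx3, Fndc3c1, Calcr, Onecut3 and Hmx2. Of these, Onecut3 ran from 5.73 to 9.4 CPM (8.90, SE 0.21, and 9.615 without frontal cortex 120 min animal 5), and Fndc3c1 had 1988 reads against 2, a ratio of 1239 (342.6 to 10240) that was 2337 or 2322 without frontal cortex 30 min animal 1 or 120 min animal 4. In frontal cortex they were Ovol2, Gm13601, Gm11549, Prss16, Slc17a7, Akr1c18, Igfn1, Neurod6, Myhas, Prss22, Emx1, Mei1, Cdsn, Gm14285 and Dkkl1. Ovol2, a zinc finger factor, ran from 0 to 0.0698 CPM in hypothalamus and from 7.4 to 13.4 CPM in frontal cortex (-8.54, SE 0.20), below the level of the main cortical genes but with the largest difference of its side. Gm11549 reached 54.3 to 85.3 CPM in frontal cortex against 0.11 to 2.19 CPM (-7.65, SE 0.24), with -8.46 without the 3 hypothalamus libraries. Dkkl1 ran from 15.3 to 23.9 CPM against 0.186 to 0.465 CPM (-5.92, SE 0.09). Among abundant genes outside the lists, Irs4, an insulin receptor substrate, ran from 97 to 178 CPM in hypothalamus against 0.0802 to 0.867 CPM (8.31, SE 0.14), and Arhgap36 from 86.9 to 178 CPM against 0.166 to 1.76 CPM (7.67, SE 0.17). On the other side Epop ran from 1.87 to 6.41 CPM against 128 to 169 CPM (-5.47, SE 0.12) and Ankrd33b from 2.21 to 10.1 CPM against 125 to 180 CPM (-5.46, SE 0.18).

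Regional differences were tested for change over the 3 times with a region by time interaction. Of the 17870 genes 4515 (25.3%) were called. Among the 3850 genes at least 2-fold between regions, 443 (11.5%) were called, against 29.04% of the other genes. Of the 3312 genes at least 2-fold that could be tested at each time, 3307 had the same direction at all 3. Within frontal cortex the times differed for 6277 genes (35.1%), and within hypothalamus for 38 (0.213%). The smallest interaction p-values belonged to genes with little regional difference: Rbm25, a splicing factor, had log2 fold changes of -0.71, 0.42 and 0.25 at 30, 60 and 120 min (adjusted p = 2.86e-06), S1pr1, a sphingosine phosphate receptor, had -0.86, 0.47 and -0.34 (3.77e-06), and Ino80d had -0.35, 0.34 and -0.10. The identifier ENSMUSG00000090739, which has no symbol, had -0.37, 0.30 and 0.03. Lepr had -0.61, 1.04 and 0.83 (adjusted p = 0.0115) and Grp 0.44, -0.72 and -0.37 (0.0202). Among genes of clear regional identity, Egr1 moved from -2.70 through -3.08 to -3.68 (adjusted p = 0.000279), Mc4r from 2.18 through 1.10 to 0.90 (0.000357) and Grin2a from -2.68 through -1.04 to -2.31 (0.000547). Time cannot be told apart from the code in the column names at 30 min, and the animals differ between times. Within each region the times also share no leading library index, so time and index cannot be told apart. Reads that matched no gene took 10.99% to 12.7% in frontal cortex at 30 min and 8.99% to 9.71% at 60 min. In hypothalamus they took 11.37% to 11.71% and 11.96% to 13.13%. Their part in the time differences was not tested.

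The same comparison was made in intruder animals, which share no library with the controls. With 15 hypothalamus and 16 frontal cortex libraries, 17683 genes were tested and 14457 (81.8%) were called, with 1938 (11%) at least 2-fold higher in hypothalamus and 1784 (10.1%) higher in frontal cortex. Of the 3850 genes at least 2-fold in controls, 3755 were tested there, 3753 had the same direction and 3473 (92.5%) were again called and at least 2-fold. Hcrt had a log2 fold change of 9.97 in controls and 10.10 in intruder animals, Slc17a6 3.24 and 3.09, and Neurod6 -6.77 and -6.47. For some hypothalamic genes the difference was smaller in intruder animals, and 1 frontal cortex library, the 120 min library of animal 1, moved with it. That library held 15.6 CPM of Oxt, where the other 15 held 0.0423 to 0.685 CPM, 8.35 CPM of Avp (0.0645 to 1.25 CPM in the others) and 12.2 CPM of Irs4 (0.212 to 0.814 CPM). Oxt had a log2 fold change of 7.72 with that library and 10.01 without it, against 10.17 in controls, Calcr 6.66 and 8.57, against 8.99, and Irs4 6.76 and 7.90, against 8.31. Pmch was at 9.46 and 9.43, against 11.05, and its highest frontal cortex level was 5.11 CPM in another library, at 60 min in animal 2.

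**Figure D5:**
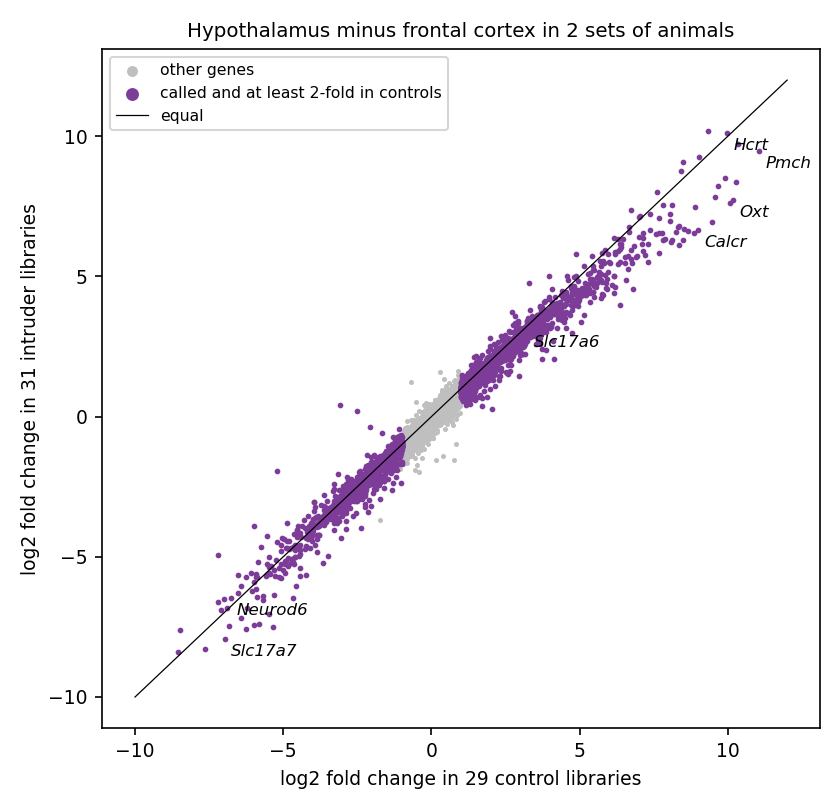
Log2 fold change of each gene, hypothalamus minus frontal cortex, in the 29 control libraries (horizontal) and the 31 intruder libraries (vertical), with genes called and at least 2-fold in controls in purple and the line of equal values. Nearly all purple genes keep their side (3753 of 3755), and hypothalamic genes such as Oxt and Calcr fall below the line.

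The 15 amygdala control libraries placed these genes between the regions or beside one of them. Slc17a7 had a mean of 683 ± 255 CPM (SD, n = 15) in amygdala, Tbr1 65.9 ± 17.9, Neurod2 43.5 ± 17.2 and Slc17a6 106 ± 21.4, each between its levels in hypothalamus and frontal cortex. Pmch (0.337 ± 0.263 CPM), Hcrt (0.0546 ± 0.0273) and Six6 (0.0236 ± 0.0224) were near the frontal cortex level. Sim1 (8.27 ± 2.95), Avp (14.998 ± 13.4) and Dlk1 (47.7 ± 11.1) had amygdala means between those of frontal cortex and hypothalamus, and the highest amygdala library of Sim1 (13.2 CPM) stood above its lowest hypothalamus library (12.9 CPM). Amygdala CPM were scaled over all control libraries. These levels were described and not tested.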

How the data were processed

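Polyadenylated RNA of dissected tissue was sequenced from stranded, single-end libraries. Per the submitters' processing notes, CASAVA 1.8.2, TopHat2 2.0.8, HTSeq 0.6.1, edgeR 3.2.4, R 3.0.0 and build NCBIM37 were used; their roles and the annotation are not given in the sources used here. The authors deposited 1 table of whole-number read counts per gene, without normalization, and its summary rows were left out. Here the counts were scaled by TMM, genes of low counts were removed with filterByExpr on region and time groups, and edgeR 4.0.16 (R 4.3.3) fitted time and region with the quasi-likelihood test and Benjamini-Hochberg adjustment over all 17870 genes tested. All adjusted p-values of single genes are from that test. CPM values use TMM-scaled library sizes. limma 3.58.1 and DESeq2 1.42.0 gave alternatives, and correlations used scipy 1.17.1.

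The named genes were those of the lists, the 15 with the largest difference on each side among genes called with and without the animal block, with a mean of at least 1 CPM in the higher region and no overlap between regions, the 5 with the smallest interaction p-values, and the 2 on each side with the largest difference outside the lists at 100 CPM or more. The members and lists were chosen with earlier results of these data known. Same-numbered libraries of a time are from the same animal per the labels; their deviations correlated at -0.0270 to 0.218 (median 0.0758 over 13 pairs), against a median of -0.0212 for different animals. No 2 libraries of a group agreed within sampling noise. In simulated counts for the region comparison 98% of 100 genes changed by 1 and 100% of 100 changed by 2 on the log2 scale were recovered, with 2.5% of calls false. For the interaction 82% and 96% were recovered, with 5.3% of calls false. The simulation gave all genes 1 common spread and changed few genes, whereas 82.3% were called in the data. Its false shares therefore do not carry over to the data. Some genes that these rules name are not reported here.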

Additional observations from a re-analysis of the deposited data

Results flagged for a closer look

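In 18 of 215 groups of values 1 library lay far from the others, where chance gives about 1 in 20. In hypothalamus at 60 min animal 6 stood apart, with a score (mean log2(CPM + 1) of a list) of 2.466 for hypothalamic transcription factors (3.165 to 3.422 in the others), 3.45 for monoamine genes (3.989 to 4.122), 3.198 for serotonin receptors (2.969 to 3.013) and 6.396 for GABA-A subunits (6.144 to 6.215). It also had 8.034 CPM of Hdc (35.1 to 44.21) and 179.6 CPM of Ttr (0.2813 to 9.503). In hypothalamus at 120 min animal 2 had a pyramidal gene score of 6.106 (5.438 to 5.537) and 165.6 CPM of Slc17a7 (2.863 to 22.46), animal 6 had a thalamus score of 5.248 (3.203 to 3.506) and 82.61 CPM of Tcf7l2 (13.14 to 24.05), and animal 4 had 8.564 CPM of Ttr (0.5699 to 2.269).

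In frontal cortex at 120 min animal 1 had the lowest depth, 38.6 M gene reads (49.22 to 53.79), and a processing score of 7.432 (7.548 to 7.604). There animal 4 had 0.08733 CPM of Rax (0 to 0.02752) and 29.8 CPM of Ttr (3.049 to 8.062), and animal 3 had 0.5499 CPM of Avp (0.2286 to 0.2985). At 30 min animal 4 had a thalamus score of 2.623 (2.78 to 2.805) and animal 5 had 1307 CPM of Slc17a7 (1388 to 1411).

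The regional difference changed between times for 32 of the 203 genes looked at, by edgeR's interaction test with adjustment over all genes, against 25.3% of all genes. Of the 32, Rbm25, ENSMUSG00000090739, S1pr1 and Ino80d had been named for their small p in this same test. The adjusted p was 2.86e-06 for Rbm25 and 3.77e-06 for ENSMUSG00000090739, S1pr1 and Ino80d. It was 0.00013 for Peg3, 0.000279 for Egr1, 0.000357 for Mc4r, 0.000452 for Qpct, 0.000547 for Grin2a and 0.000906 for Pgr. It was 0.0011 for Slc1a2, 0.00188 for Resp18, 0.00194 for Hcrtr1, 0.00226 for Zim1, 0.00264 for Ndn, 0.00304 for Sst and 0.00846 for Fos. It was 0.0105 for Slc17a7, 0.0115 for Lepr and Slc4a4, 0.0153 for Cux2, 0.0154 for Grin2b, 0.0189 for Gnas, 0.0201 for Onecut3, 0.0202 for Grp, 0.024 for Myrf, 0.0271 for Neurod2 and 0.0292 for Meg3. For Dio2 it was 0.0302, for Slc32a1 0.0327, for Tmem212 0.042 and for Foxp2 0.0472.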

How the results depend on the processing

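No count of called genes moved by over 1.5 times under another scaling, DESeq2, limma voom, the libraries of 1 time alone or any library left out, except that without a filter on low counts 3193 genes were at least 2-fold higher in hypothalamus instead of 2110. With the animal as a replicate block 14372 genes were called, 2116 and 1749 of them at least 2-fold, and among the named genes the block changed the calls of Lepr and Lhx6, given above, and no other. Leaving out 1 library at a time gave 14550 to 14770 called genes and 3824 to 3947 at least 2-fold. The correlation of Agrp with Pomc fell below the threshold after subtracting the mean of each time (r = 0.628, adjusted permutation p = 0.193) and without the 2 farthest libraries (r = 0.589, adjusted permutation p = 0.343).

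Sign changes of single genes are given here only where the gene was called in the main fit or in the alternative. With library size alone the medians of the cortical layer genes (0.02299) and interneuron genes (0.04506), the processing genes (0.1823) and the olfactory bulb genes (0.02443) and the values of Scg5 (0.1823), Aldoc (0.189) and Ino80d (0.1993) changed sign. In the 30 min libraries alone so did the medians of interneuron (0.03088), striatum (0.4083), choroid plexus (-0.3227), olfactory bulb (0.09412) and processing genes (0.06631), and Grp (0.4373), Lepr (-0.6072), Rbm25 (-0.712) and ENSMUSG00000090739 (-0.3749), and in the 60 min libraries alone S1pr1 (0.4665) and Ino80d (0.3439). The olfactory bulb median also changed sign at 120 min alone (0.2805) and with the replicate block (0.07128), the processing median with upper-quartile scaling (0.04362) and at 60 min alone (0.004518), the choroid plexus median (-0.2021 to -0.03358) without hypothalamus 60 min animal 6 or frontal cortex 60 min animal 1 or 5, and the olfactory bulb median (0.003329) without the last of these. The cause was not tested. Over all alternatives, single named genes lost their call in 26 cases and gained one in 50, and DESeq2 gave no adjusted p for 6 named genes. Within the control libraries index cannot be told apart from region, nor from time within a region. The depth limits the folds of genes with 0 to 3 reads in a region.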
